A study of Mus musculus with 4 samples.

Results

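Late cornified envelope genes, named Lce in the mouse, were taken as all probe sets on the arrays whose platform gene symbol contains a symbol starting with Lce. This rule found 14 of the 14602 genes named on the arrays, on 11 of 24833 probe sets. All 11 lay on the second of 2 array types and none on the first. Of the 11, 10 named a single gene (Lce1a1, Lce1a2, Lce1b, Lce1f, Lce1h, Lce1k, Lce1l and Lce1m, with 2 probe sets each for Lce1a1 and Lce1f), and 1 named 6 genes together, Lce3a to Lce3f. These are 14 of the 21 Lce genes in the RefSeq annotation of GRCm38.p6. Lce1c, Lce1d, Lce1e, Lce1g, Lce1i, Lce1j and Lce6a were named by no probe set used here.

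The cornified envelope is the protein shell that replaces the plasma membrane of a keratinocyte as it becomes a dead cell of the skin surface. Late cornified envelope proteins are small proteins rich in cysteine, glycine, serine and proline. They are made in the upper granular layer and are cross-linked onto the envelope by transglutaminases, late in its assembly. Their genes lie side by side in the epidermal differentiation complex, which also holds loricrin, involucrin, filaggrin and the small proline-rich proteins. In human skin, genes of the LCE1 group are known for expression in normal epidermis, and those of the LCE3 group for induction after damage to the barrier.

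RNA came from whole skin of newborn (P0) loricrin knockout and wildtype mice, both of strain FVB/N, with no treatment given in the labels. Loricrin is the main protein of the envelope, and its absence is the only labelled difference between the groups. The sources used here do not give the allele, the number of animals behind an array or any pooling. There were 4 arrays, 2 per genotype, with 1 per genotype on each array type, so each Lce value below comes from 1 knockout array and 1 wildtype array. No test was possible and no value has a replicate error.

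The genotype labels could be checked on the first type only, where the brighter loricrin probe set had 2013 in knockout against 41224 in wildtype. On the second type, which carries the Lce probe sets, no probe set is listed for loricrin. There the Y-linked gene Kdm5d had signals of 27.8 and 12.2 on its 2 probe sets in knockout, against 470 and 976 in wildtype, so sex and genotype cannot be told apart. Of 20 markers of suprabasal and granular keratinocytes 9 were on the second type, all above the floor, with a summed signal of 223067 in knockout and 262780 in wildtype. The basal keratin gene Krt15 read 26582 in knockout and 22304 in wildtype, and the dermal matrix gene Col14a1 89.8 in knockout and 320 in wildtype. Dct, an enzyme of melanin synthesis and the 1 melanocyte marker there, read 3901 in knockout and 1769 in wildtype (log2 ratio 1.14). None of the 5 melanocyte markers on the first type passed 2-fold, against 0.869% higher and 1.22% lower among all probe sets there. Their median log2 ratio was 0.27, and Dct stood at 0.74 on that type. On the first type 12 of the 20 suprabasal and granular markers had a probe set, all above the floor, with a median log2 ratio of -0.55. Their summed signal, loricrin included, was 156061 in knockout and 257526 in wildtype. Of 8 dermal fibroblast markers on the first type 5 were at least 2-fold lower in knockout, against 1.22% of all probe sets there. The 8 summed to 3994 in knockout and 7371 in wildtype. Col3a1, Lum and Pdgfra were below the floor in knockout, while Dcn (log2 ratio -0.05) and Col1a2 (0.01) hardly differed. All 3 erythroid markers with a probe set there were at least 2-fold lower, with sums of 5464 in knockout and 21670 in wildtype. Alas2 among them was below the floor in knockout. Of 8 basal keratinocyte markers there 5 lay above the floor and 4 were at least 2-fold higher, against 0.869% of all, with sums over the 8 of 5754 in knockout and 2719 in wildtype. The 3 below the floor in both arrays were the basal keratin genes Krt5, Krt14 and Krt15, so the first type gave no ratio for them. The part of sex or of the make-up of the skin sample in the Lce values was not tested. In whole skin, fewer cells of a type and less RNA per cell cannot be told apart.

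Most Lce signals were high in both genotypes, and no measured one differed 2-fold between them. Values are MAS5 signals on a linear scale with the 2 arrays of a type brought to the same trimmed mean, and signals below a floor of 133 count as not measured. Of the 11 Lce probe sets 10 lay above the floor in both arrays. None was at least 2-fold higher in knockout and none at least 2-fold lower, against 1.48% and 1.84% of the 12411 probe sets of the type. With shares this low, finding none among 11 probe sets is no result particular to the Lce genes. The Lce log2 ratios of knockout over wildtype ran from -0.43 to 0.27 with a median of -0.27. Over all probe sets of the type above the floor the median was 0.00, and 57.3% of the 8132 others lay inside the Lce range. The Lce median was negative under this scaling and under loess (-0.11), but 0.02 under quantile normalization and 0.38 when the arrays were scaled on bacterial spike-ins.

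**Figure D1:**
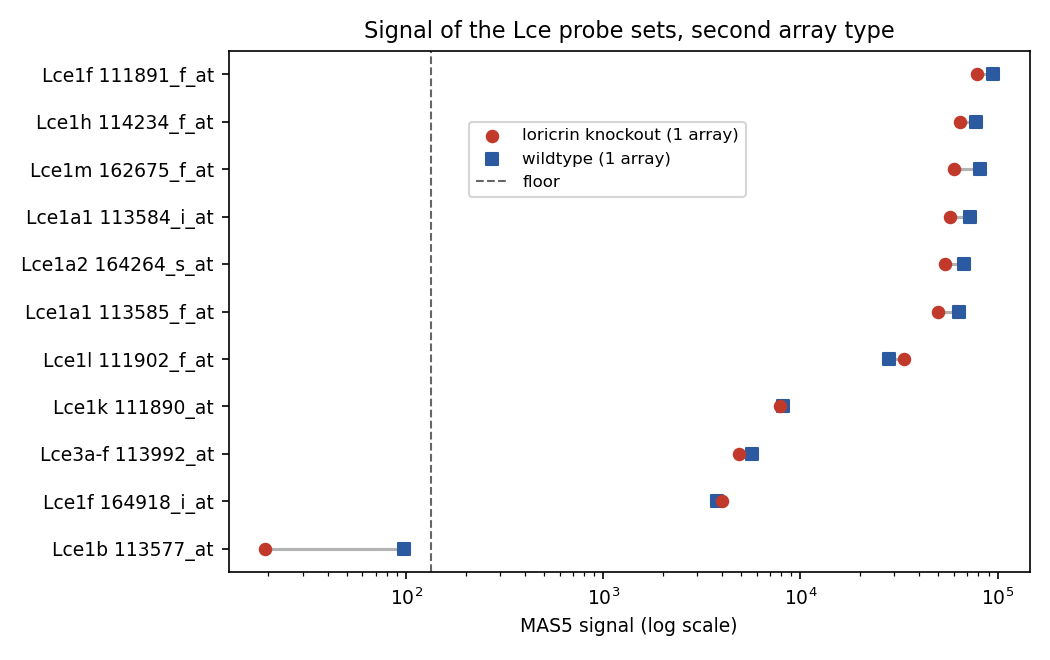
MAS5 signal (log axis) of each Lce probe set in the knockout array (red circle) and the wildtype array (blue square), with the floor as a dashed line. The upper 6 probe sets sit lower in knockout under this trimmed-mean scaling (higher with spike-in scaling), Lce1l sits higher in knockout, and Lce1b lies below the floor in both arrays.

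The 6 probe sets with the highest signals belong to 5 Lce1 genes, and each had a lower signal in knockout, although all 6 ratios were above 0 with spike-in scaling. They were set apart, after their values had been seen, as those with a mean signal over 40000. Their signals ran from 49633 to 78409 in knockout and from 63761 to 95194 in wildtype. The probe set of Lce1f, a gene in the middle of the Lce1 row, read 78409 in knockout against 95194 in wildtype (log2 ratio -0.28). Lce1h read 64704 in knockout against 77970 in wildtype (log2 ratio -0.27). Lce1m, which stands apart from the Lce1 row beyond Crct1, another gene of the complex, read 60339 in knockout and 81126 in wildtype. Its log2 ratio of -0.43 was the lowest among the Lce probe sets above the floor.

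Lce1a1 and Lce1a2, a pair of similarly named genes at the other end of the row, had nearly the same ratio. On its first probe set Lce1a1 read 57631 in knockout against 72102 in wildtype (log2 ratio -0.32). On the other it read 49633 in knockout against 63761 in wildtype (log2 ratio -0.36). Lce1a2 read 54241 in knockout and 67544 in wildtype, with a log2 ratio of -0.32. The 6 ratios together spanned only -0.43 to -0.27. Every one of these 6 probe sets carries a suffix. On the first Lce1a1 probe set it marks an incomplete set of probes, and whether other genes share them is not known. On the others it marks shared sequence, so those signals cannot be assigned to single genes.

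The remaining 4 measured probe sets had lower signals and ratios on both sides of 0, from -0.21 to 0.27. Lce1l, which lies beyond Kprp from the Lce1 row, was the brighter of the 2 Lce probe sets with more signal in knockout under the reported scaling. It read 33724 in knockout against 27992 in wildtype (log2 ratio 0.27). Its direction was positive under every scaling tried, from 0.26 to 0.92. Lce1k read 7914 in knockout against 8129 in wildtype (log2 ratio -0.04). Its probe set and that of the Lce3 genes are the only measured ones with no suffix.

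The Lce3 probe set read 4867 in knockout against 5647 in wildtype (log2 ratio -0.21). It names all 6 Lce3 genes, so a change of one of them in one direction and of another in the opposite direction would not be seen. Neither the Lce1k nor the Lce3 value passed 2-fold under any scaling, and the Lce3 ratio was 0.44 under spike-in scaling.

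A second Lce1f probe set differed from the first under the reported scaling. It read 4023 in knockout against 3758 in wildtype (log2 ratio 0.10). The other Lce1f probe set had 19.5 times its signal in knockout and 25.3 times in wildtype. The 2 ratios for this gene thus lay 0.38 apart, while those of the 2 Lce1a1 probe sets lay 0.04 apart. Under quantile normalization both Lce1f ratios were 0.11, and under loess they were -0.08 for the brighter and 0.10 for the dimmer probe set. The bright Lce1f probe set has the suffix for a sequence family and the dim one that for an incomplete set of probes. Signals of different probe sets give no order of RNA amounts.

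Lce1b was the 1 Lce probe set not measured. It read 19.2 in knockout and 97.4 in wildtype, both below the floor, so no fold is given. Its log2 ratio was -1.16 once the floor was lowered to the 20th percentile, and -2.29 with no floor and a pseudocount of 1. No other Lce probe set passed 2-fold at those settings.

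Among the 20 probe sets of highest signal 7 were Lce probe sets in knockout and 6 in wildtype. The summed Lce signal was 415505 in knockout and 503319 in wildtype, or 4.65% of all signal on the second type in knockout and 5.42% in wildtype. The log2 ratio of these sums was -0.28. The 9 suprabasal and granular markers had a log2 ratio of sums of -0.24. For the 12 on the first type, loricrin included, it was -0.72. The 4 other probe sets at least as bright as the dimmest of the 6 bright Lce probe sets, those of Fam25c, Sbsn, Stfa3 and Klk7, had log2 ratios from -0.49 to -0.17. Sbsn and Klk7 are also among the 9 markers. Among the 100 brightest probe sets that name no Lce gene the median was -0.09, 62 were below 0 and 1 passed 2-fold. The part of signal height in the Lce ratios was not tested. Whether signals of this height were near saturation cannot be read from MAS5 values.

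**Figure D2:**
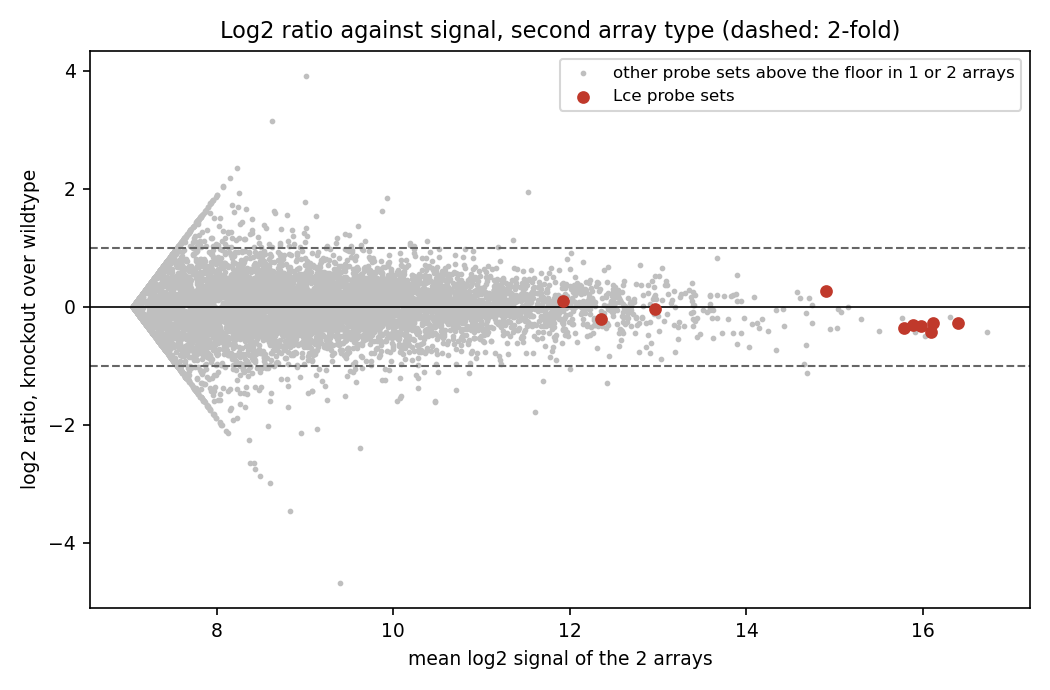
Log2 ratio of knockout over wildtype against mean log2 signal for all probe sets of the second type above the floor in 1 or both arrays, with the 10 measured Lce probe sets in red and 2-fold as dashed lines. All 10 lie between the dashed lines, and the 6 at the far right lie between -0.43 and -0.27.

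The sign of the Lce ratios depended on how the arrays were scaled. The scalings compared were the equal trimmed mean, the median of the brightest 10%, loess, quantile and spike-ins. Under quantile normalization 4 Lce ratios were below 0, 5 above and 1 at 0, and under spike-in scaling all 10 were above 0. Quantile normalization gives equal ranks equal values, so a shift shared by the brightest probe sets is taken out. It therefore cannot show whether such a shift was there. The Lce median minus the median of all measured probe sets was -0.28 as reported, -0.22 under spike-ins, -0.12 under loess and 0.01 under quantile. No Lce probe set passed 2-fold under any of these scalings, the nearest being Lce1l at 0.92 under spike-ins. Spike-in scaling moved the median of all measured probe sets to 0.60.

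**Figure D3:**
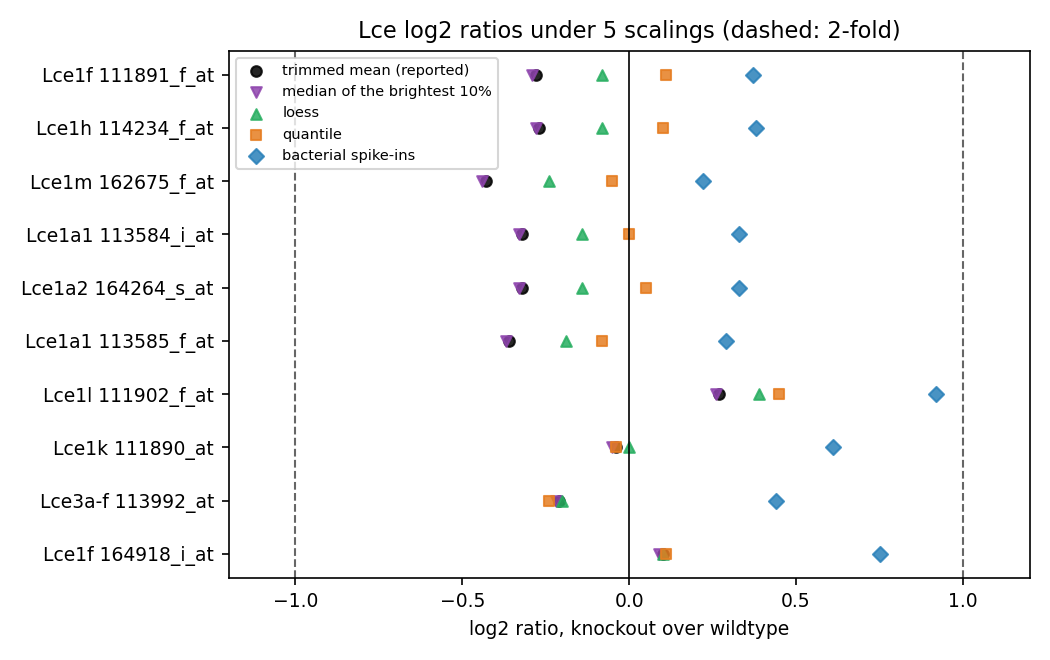
Log2 ratio of knockout over wildtype for the 10 measured Lce probe sets under 5 scalings, 1 row per probe set, with 2-fold as dashed lines. The 6 brightest probe sets (upper rows) move from below 0 with trimmed means to near 0 with quantile and above 0 with spike-ins, and Lce1l stays to the right of 0 throughout.

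The 5 probe sets of other single genes nearest to the Lce median (51886 in knockout and 65625 in wildtype) were sought by distance in log2 knockout and log2 wildtype signal, over 2 arrays. Klk7, a serine protease that cuts the junctions between cells of the skin surface, was nearest at a distance of 0.12, and read 52995 in knockout and 71072 in wildtype. Stfa3, a cysteine protease inhibitor of the stefin family, followed at 0.28, and Cysrt1 at 0.48. Sbsn, a secreted protein of suprabasal epidermis, lay at 0.68 and Ly6g6c at 0.98. Their log2 ratios were -0.42, -0.49, -0.42, -0.17 and -0.01. The choice by both signals limits how far such ratios can lie from that of the Lce median signals (-0.34). Their likeness is therefore no separate result. Klk7, Stfa3 and Sbsn are also among the bright probe sets named above.

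The RefSeq promoters of the Lce genes show what the members share beyond their names. Sequences of 250 bases before and 50 after the annotated start were found for 20 Lce genes, 13 of them named on the array, all on mouse chromosome 3 (GRCm38.p6). Shown are those of 4 genes whose bright probe sets had similar ratios (Lce1a1, Lce1a2, Lce1h and Lce1m), of Lce1l, which had more signal in knockout, of Lce1b, which lay below the floor, and of Lce3c for the Lce3 group. Capitals mark the words ATAAAA and CTGTCTCA, both chosen after the sequences had been seen.
Lce1a1: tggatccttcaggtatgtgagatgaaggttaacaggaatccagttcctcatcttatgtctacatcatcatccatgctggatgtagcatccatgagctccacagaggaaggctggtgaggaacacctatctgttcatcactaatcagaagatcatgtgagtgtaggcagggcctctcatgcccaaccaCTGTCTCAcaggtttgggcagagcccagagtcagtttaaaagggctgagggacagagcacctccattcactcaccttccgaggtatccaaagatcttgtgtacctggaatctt
Lce1a2: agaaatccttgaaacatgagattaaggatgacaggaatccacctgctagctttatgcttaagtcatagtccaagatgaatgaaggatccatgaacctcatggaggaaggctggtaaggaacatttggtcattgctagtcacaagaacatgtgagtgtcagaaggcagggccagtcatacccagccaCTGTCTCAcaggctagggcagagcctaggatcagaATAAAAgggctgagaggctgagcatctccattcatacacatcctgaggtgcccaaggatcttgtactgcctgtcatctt
Lce1h: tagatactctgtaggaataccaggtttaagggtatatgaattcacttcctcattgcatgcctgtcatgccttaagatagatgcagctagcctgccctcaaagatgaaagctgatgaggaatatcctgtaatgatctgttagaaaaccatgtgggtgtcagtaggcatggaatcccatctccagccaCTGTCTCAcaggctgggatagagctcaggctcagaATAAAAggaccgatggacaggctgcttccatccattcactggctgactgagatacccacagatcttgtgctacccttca
Lce1m: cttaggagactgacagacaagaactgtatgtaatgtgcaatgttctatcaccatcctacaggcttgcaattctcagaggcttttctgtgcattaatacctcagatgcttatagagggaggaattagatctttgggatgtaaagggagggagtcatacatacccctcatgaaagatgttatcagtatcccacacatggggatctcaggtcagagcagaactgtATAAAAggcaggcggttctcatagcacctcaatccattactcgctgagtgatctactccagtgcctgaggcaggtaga
Lce1l: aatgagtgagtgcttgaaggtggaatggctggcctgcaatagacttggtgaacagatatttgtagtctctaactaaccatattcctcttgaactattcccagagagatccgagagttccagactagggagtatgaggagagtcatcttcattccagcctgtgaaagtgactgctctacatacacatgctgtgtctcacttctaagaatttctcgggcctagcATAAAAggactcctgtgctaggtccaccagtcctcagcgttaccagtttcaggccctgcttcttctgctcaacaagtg
Lce1b: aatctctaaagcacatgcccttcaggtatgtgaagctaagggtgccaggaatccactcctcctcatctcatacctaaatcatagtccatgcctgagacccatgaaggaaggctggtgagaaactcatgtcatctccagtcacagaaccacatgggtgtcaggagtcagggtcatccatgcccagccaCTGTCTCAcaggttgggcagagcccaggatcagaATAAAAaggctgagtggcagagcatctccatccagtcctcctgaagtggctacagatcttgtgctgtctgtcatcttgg
Lce3c: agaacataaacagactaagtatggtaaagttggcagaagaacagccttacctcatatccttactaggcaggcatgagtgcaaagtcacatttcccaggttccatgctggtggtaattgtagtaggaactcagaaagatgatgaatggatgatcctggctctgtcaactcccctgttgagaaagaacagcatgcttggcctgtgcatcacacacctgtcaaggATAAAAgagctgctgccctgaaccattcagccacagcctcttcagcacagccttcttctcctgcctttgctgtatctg
The windows of the minus-strand genes are chr3:92648258-92648557 for Lce1a1, chr3:92670266-92670565 for Lce1a2, chr3:92765016-92765315 for Lce1h, chr3:93019012-93019311 for Lce1m, chr3:92851237-92851536 for Lce1l and chr3:92656877-92657176 for Lce1b. That of Lce3c, on the plus strand, is chr3:92944236-92944535.

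The word ATAAAA, close in letters to a TATA box and read on the sense strand, began between 31 and 28 bases before the annotated start in 17 of 20 Lce promoters, 12 of 13 in the Lce1 group and 5 of 6 in the Lce3 group. Among all 32851 promoters of this length 1.74% had it with a first base from 40 to 20 bases before the start, a window set after the Lce positions had been seen. The TATA box form TATAAA, which can overlap it and was also read on the sense strand, was in 2 Lce promoters (Lce1d and Lce1m) and 8.32% of all. The word CTGTCTCA, on the sense strand, was in 10 Lce promoters, all of the Lce1 group, against 0.965% of all. It lay between 67 and 52 bases before the start. Lce1c, Lce1l and Lce1m did not hold it, while Lce1b, which was not measured, held both words. The site of AP-1 factors, TGANTCA on either strand, was in none of the 20 windows and in 7.81% of all promoters.

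**Figure D4:**
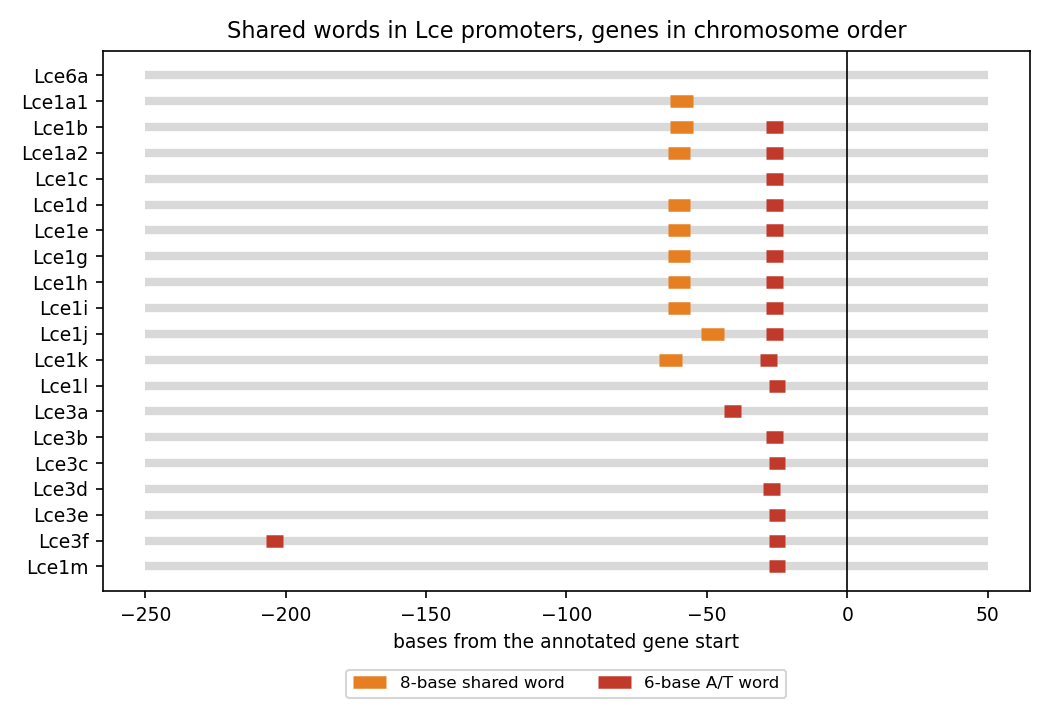
Position of the words ATAAAA (red) and CTGTCTCA (orange) in the promoters of 20 Lce genes, in bases from the annotated start, with genes in chromosome order from top to bottom. The red marks line up close before the start in 17 genes, and the orange marks occur in 10 genes of the Lce1 group.

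By median, promoters were more alike within a group than between groups. Counted as identical bases out of 300 after alignment, pairs within the Lce1 group shared a median of 66% (53.3% to 86.3%). Pairs within the Lce3 group shared 61.7% (59.3% to 85%). Pairs of an Lce1 and an Lce3 gene shared a median of 54.9%. Lce1l shared 53.3% to 57% with other Lce1 promoters and 54% to 56.3% with Lce3 promoters. For Lce1m these ranges were 53.7% to 58% and 53% to 55%. No unrelated promoters were aligned for comparison. Lce1a1 and Lce1a2, which had the same log2 ratio to within 0.04, shared 75.7%. Lce1h and Lce1l, with ratios of opposite sign under the reported scaling, shared 53.3%, the lowest of the Lce1 pairs. Lce1h and Lce1m, both lower in knockout under the reported scaling, shared 57.3%. These pairs were picked, with their ratios known, from the 78 Lce1 pairs, many of which include a gene with no measured ratio. The probe sets of Lce1a2, Lce1h, Lce1l and Lce1m and the dimmer one of Lce1a1 carry a suffix for shared sequence. A link between promoter likeness and ratio was not tested.

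Neighbouring genes of the complex were mostly measured on the first type. Of 43 other genes of the complex listed, 29 had a probe set there and 26 lay above the floor. Loricrin, the targeted gene, was the 1 at least 2-fold lower, and Sprr2e, Sprr2h and Sprr2i were at least 2-fold higher, against 1.22% and 0.869% of the probe sets of that type. The brightest others were Crct1, the gene beside Lce1m, at 24568 in knockout and 35027 in wildtype (log2 ratio -0.51), and the filament-binding protein filaggrin (Flg) at 17219 in knockout and 22620 in wildtype (-0.39). The probe sets of Sprr2e, Sprr2i and Crct1 carry the suffix for a sequence family, so their signals cannot be assigned to single genes. The median of the 26 was -0.21. On the second type 4 of the 43 had a probe set, 3 above the floor and none past 2-fold, against 1.48% higher and 1.84% lower among all. Crnn, among these 3, was above the floor in knockout only (154 against 84.7 in wildtype). Kprp, a proline-rich keratinocyte protein whose gene lies between Lce1k and Lce1l, read 27709 in knockout against 27152 in wildtype (log2 ratio 0.03). S100a10, which binds annexin A2, read 390 in knockout against 211 in wildtype there (log2 ratio 0.88), but 6777 in knockout against 10284 in wildtype on its brighter probe set of the first type (log2 ratio -0.60).

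A list of 32 genes outside the complex was drawn up for envelope formation and is broader than its last steps. Among its members are the keratins Krt1 and Krt10, the plakins Evpl and Ppl, and the desmosomal genes Dsg1a and Dsc1. It overlaps the suprabasal and granular markers. On the second type both include the same probe sets of Sbsn, Cnfn, Klk7, Dsg1a, Dsc1, Asprv1, Calm4 and Tgm3. On the second type 14 lay above the floor, with a median log2 ratio of -0.25 and none past 2-fold, against 1.48% higher and 1.84% lower among all probe sets. The brightest were Sbsn (-0.17) and Klk7 (-0.42). On the first type 16 of 18 lay above the floor, with a median of -0.13 and none past 2-fold, against 0.869% and 1.22% of all. Dmkn and Tgm2 were not measured there. Calm4, a calmodulin-like protein of skin, stood at -0.69 there and Krtdap, a protein of differentiating keratinocytes, at -0.58.

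Of 36 transcription factors of late epidermal differentiation 10 lay above the floor on the second type, none past 2-fold (1.48% and 1.84% of all probe sets), and their median was 0.15. Fosl2, an AP-1 factor, had a log2 ratio of 0.55 (-0.13 on the first type, below the floor there in knockout) and Ovol1, a zinc finger factor of differentiating epidermis, 0.12. On the first type 26 were measured with a median of 0.13. Trp63, a factor of the basal layer, was 2.09-fold higher in knockout, the 1 of the 26 past 2-fold, against 0.869% higher and 1.22% lower among all. The brightest there were Hopx (-0.27) and Cebpa (-0.23).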

How the data were processed

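Whole-skin RNA of newborn mice was hybridised to 4 arrays, 1 knockout and 1 wildtype array on each of 2 types, and groups were taken from the genotype label. The values are the authors' deposited array intensity values, MAS5 signals per the submitters' processing notes. The sources used here do not give the MAS5 version, scaling target or detection calls. All columns had a 2% trimmed mean between 500.2 and 500.4.

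Within a type both arrays were brought to the same trimmed mean, signals below the mean of their 40th percentiles (77.6 and 133) were set to that floor, and knockout was divided by wildtype on the log2 scale. After scaling, 66 control probe sets per type were removed. With 1 array per genotype and type, at least 2-fold was used in place of a test. No Lce gene was on both types, so no model over all arrays was fitted.

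Gene names come from the platform annotation, and all 16 Lce symbol entries matched the RefSeq table of GRCm38.p6 by gene identifier. For the other lists a gene took its single-gene probe set of highest mean signal. Some of these probe sets also carry a suffix for shared sequence. Every Lce probe set is named, and from the other lists the genes past 2-fold and the 2 brightest per type. This does not hold for the cell type markers, which are given mainly as counts and sums. The spike-in scaling used 9 bacterial probe sets above the floor in both arrays. Loess used a span of 0.3. Promoters were aligned globally with Biopython 1.88. Steps were tested on simulated data. The members and lists were chosen with earlier results of these data known. Computation used Python 3.11.15, pandas 2.3.3 and statsmodels 0.14.6.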

Additional observations from a re-analysis of the deposited data

How the results depend on the processing

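The Lce median log2 ratio of -0.27 moved to 0.02 under quantile normalization, -0.11 under loess, 0.38 under spike-in scaling and -0.13 with only the probe sets that carry no suffix. The number of Lce probe sets at least 2-fold lower was 0 as reported and 1 (Lce1b) when the floor was the 20th percentile or absent. Of 100 ratios of the 10 measured Lce probe sets under 10 other scalings and floors, 24 moved by more than 0.1, all under quantile, loess or spike-in scaling. The cause was not tested. Lce1b, below the floor as reported, had -1.16 with a floor at the 20th percentile, -2.29 with none and -0.60 with the floor added. Over all probe sets of the second type the count was 184 higher and 228 lower. It was 1415 and 60 under spike-in scaling (95.9% higher in place of 44.7%), 732 and 819 for a floor at the 20th percentile, 38 and 58 at the 60th, 1246 and 1361 with none, and 110 higher with the floor added. At 1.5-fold it was 755 and 866 and at 3-fold 31 and 51. On the first type 108 higher and 151 lower became 1432 and 51 under spike-ins, 434 and 700 at the 20th percentile, 40 and 40 at the 60th, 833 and 1263 with none, 59 higher with the floor added, 510 and 583 at 1.5-fold and 16 and 48 at 3-fold. No paired analysis was possible because each array type holds 1 array per genotype and no Lce gene is on both types. Leaving out an array leaves no comparison.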
